A study of Mus musculus with 4 samples.

Results

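The SLC25 family is the largest family of transport proteins of the inner mitochondrial membrane. Its members were taken by name, as every row of the deposited expression table whose gene symbol is Slc25a followed by digits. This gave 40 genes of the 15255 in the table. GENCODE M21 names 47 protein-coding genes of this kind in the mouse, and the other 7 (Slc25a2, Slc25a18, Slc25a31, Slc25a34, Slc25a41, Slc25a48 and Slc25a54) were not analysed here. RNA was measured in LSK cells, the lineage-negative, Sca-1-positive and c-Kit-positive fraction of mouse bone marrow that holds stem and early progenitor cells. There were 2 libraries labelled Afg3l2 WT and 2 labelled Afg3l2 KO, numbered 1 and 2 in each group, all from freshly separated primary cells washed in PBS. The labels give no strain, age or sex, and they do not say how Afg3l2 was inactivated, in which cells, or whether each library came from its own animal. The p-values below therefore measure the spread between libraries only. That spread includes a difference in sex-linked RNA within each group, given below.

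Mitochondrial carriers sit in a membrane that is otherwise closed to most metabolites, and each moves a small set of substrates between cytosol and matrix. Together they link glycolysis, the citric acid cycle, nucleotide supply, amino acid breakdown, one-carbon metabolism and haem synthesis across that membrane. In blood progenitors they are best known for the iron importer mitoferrin-1 and the glycine carrier SLC25A38, both of which feed haem synthesis in red cell precursors. Afg3l2 encodes a subunit of the m-AAA protease, which degrades and processes proteins of the same membrane.

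Library depth, counted as reads on genes in the table, was even: wild-type 17222255 and 17271936, knockout 16908812 and 16522338. Values are CPM, read counts scaled to a common library size with TMM factors, and a log2 fold change is knockout over wild type on log2(CPM + 1). A gene was called where limma's adjusted p over all genes was under 0.05. Afg3l2 stood at 79.6 and 86.0 CPM in wild type and at 36.7 and 30.1 CPM in the knockout (log2 fold change -1.29 ± 0.16 SE, limma adjusted p = 0.0115). That call was lost without knockout replicate 1 (limma adjusted p = 0.0551) and without knockout replicate 2 (0.161). The libraries numbered 2 carried Xist RNA at 889 and 1004 CPM (wild type, then knockout), against 0.113 and 15.7 CPM in those numbered 1. The Y-linked Ddx3y was at 5.04 and 3.50 CPM in those numbered 2, against 83.4 and 72.4 CPM in those numbered 1. The sex-linked RNA thus followed the replicate number, and the 2 libraries of each group differed in it. Differences within each number are therefore given beside the pooled ones. The sort markers Kit (223 to 341 CPM) and Ly6a, the gene of Sca-1 (57.1 to 95.4 CPM), were present in all 4 libraries. Of the other LSK genes, Cd34 was at 580 and 305 CPM in wild type and 268 and 119 CPM in the knockout, and Flt3 at 398 and 207, then 155 and 101 CPM (limma adjusted p = 0.360 and 0.207). With 1 library left out, the log2 fold change of Flt3 ran from -1.66 to -0.72. Markers of other cells also differed between libraries. Mature neutrophil genes summed to 76.2 and 1678 CPM in wild type and 690 and 466 CPM in the knockout, and B lineage genes to 183, 489, 66.6 and 285 CPM in the same order. Of 14 erythroid genes, 7 were called higher, among them Gata1, Klf1, Epor, Ermap, Rhag and Car1, and none lower. Of all 15255 genes, 241 were called higher and 128 lower. The list summed to 1333 and 1109 CPM in wild type and to 2011 and 2779 CPM in the knockout, with Hba-a1 at 66.2 to 76.1 CPM and no member at 0. Car2 and Car1 had its largest values in every library. Car2 was at 643 and 451, then 789 and 995 CPM (limma adjusted p = 0.119), and Car1 at 225 and 171, then 424 and 654 CPM. Hba-a1, Hba-a2, Hbb-bs, Hbb-bt and Slc4a1 overlapped between groups. Of these 6 named calls, 3 were lost without knockout replicate 1, all 6 without knockout replicate 2, and that of Rhag also without wild-type replicate 1. The other lists were mixed. Of 8 monocyte and macrophage genes, C1qa, C1qb and Fcgr1 were higher in both knockout libraries without a call. For C1qa, knockout replicate 2 was nearly level with wild-type replicate 2, at 15.51 and 15.49 CPM. Limma called Csf1r and Cx3cr1 of this list lower, and the list median was a log2 fold change of 0.60. Of 4 mast cell and basophil genes it called Cma1 higher, while Mcpt8 and Prss34 were lower in both knockout libraries without a call, and the list median was -0.98. Of 4 plasmacytoid dendritic genes it called Siglech and Tcf4 lower. These 5 calls were lost without knockout replicate 1 (limma adjusted p = 0.0586 to 0.120) and without knockout replicate 2 (0.149 to 0.379), and that of Tcf4 also without wild-type replicate 1 (0.0754). With edgeR on recovered reads, Csf1r (0.0545) and Siglech (0.0811) were lost. Limma called none of the LSK, neutrophil, B or T lineage lists, in which 3 genes had an unadjusted p under 0.05. The authors' deposited table placed 2 of 6 LSK genes (Cd34 and Flt3) and 4 of 5 B lineage genes lower and 1 of 4 T lineage genes (Cd8a) higher. Of all genes it placed 5.47% lower and 6.04% higher. In bulk RNA, a change in the share of a cell type and a change of RNA per cell cannot be told apart, and the part of cell makeup in the carrier results was not tested.

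Of the 40 carriers, 1 was called: the pyrimidine nucleotide carrier gene Slc25a33, which rose. Limma, edgeR and DESeq2, each without a term for the replicate number, called no carrier lower, and on the higher side DESeq2 called 4 and limma-voom 0. Over all genes limma called 2.42%, so 1 of 40 is a share near that background. At an unadjusted p under 0.05, limma gave 4 carriers higher and 2 lower, 6 of 40, against 20.8% of all genes. The authors' deposited table is named as paired, and its fit has the replicate number as a term. It placed 4 carriers higher at an FDR under 0.05, against 6.04% of all genes, and 1 lower, against 5.47%. These were Slc25a33, Slc25a44, Slc25a38 and Slc25a21 on the higher side and Slc25a27 on the lower side of the authors' deposited table. Both knockout libraries lay above both wild-type libraries for 13 carriers, 32.5% of them against 27.2% of all genes. Both lay below for 11 carriers, 27.5% against 26.9%.

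The fold changes of the carriers centred near 0. Their median log2 fold change was 0.06, with the middle of the distribution running from -0.18 to 0.31, and the median of all genes was -0.02. An absolute log2 fold change within 0.5 was found for 32 carriers (80%, against 74.2% of all genes). Carrier reads made up 0.287% and 0.271% of all reads in wild type and 0.285% and 0.302% in the knockout. The carriers lie on 18 chromosomes, 4 of them on X (Slc25a5, Slc25a14, Slc25a43 and Slc25a53), and 39 of the 40 reached 1 CPM in every library. The exception, Slc25a43, rested on 13 to 24 reads a library.

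**Figure D1:**
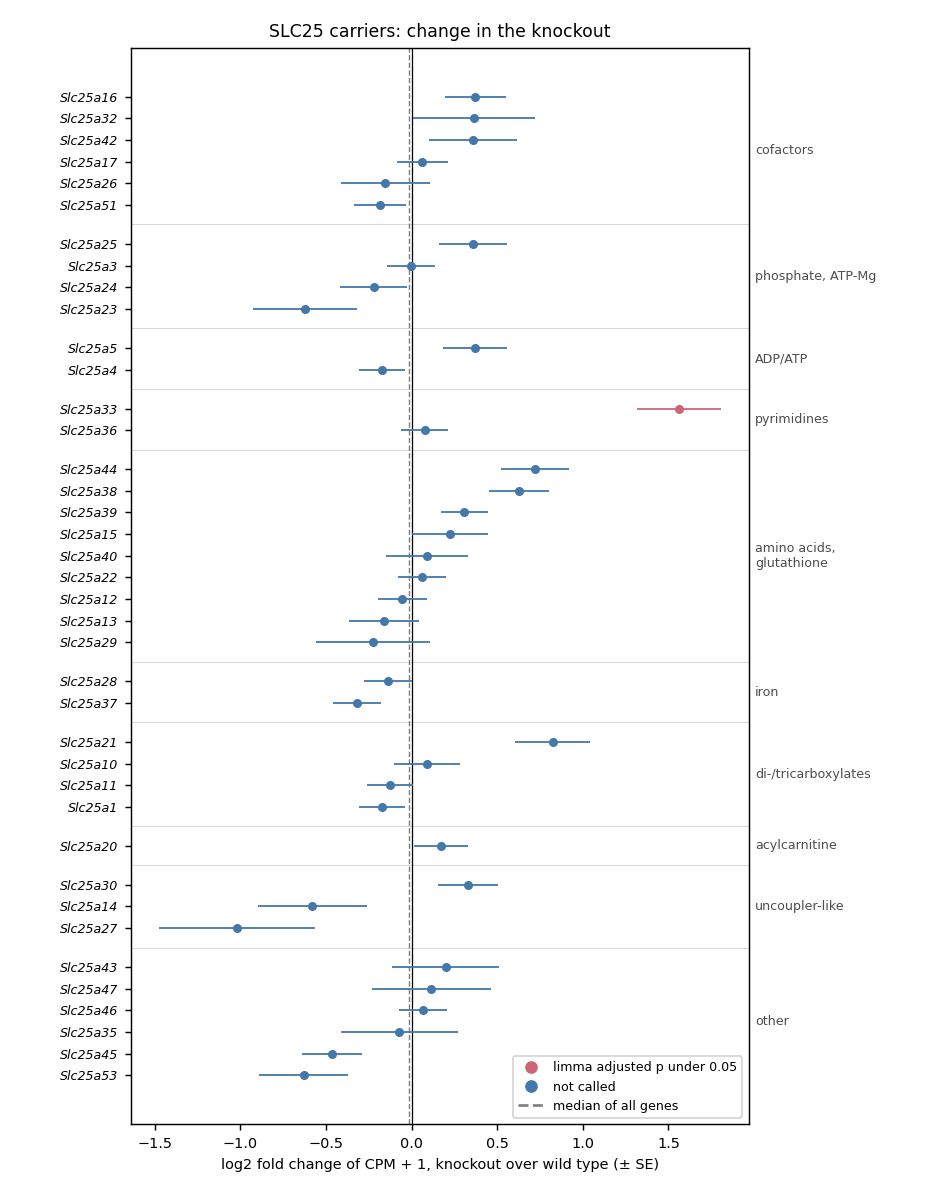
Log2 fold change of CPM + 1 (knockout over wild type, limma, bars ± SE, 2 libraries per group) for 39 of the 40 carriers, grouped by substrate. Slc25a33 stands apart at 1.56 and is the sole carrier called; the median of all genes, at -0.02, is dashed.

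Per kilobase of exon, 2 carriers stood clear of the rest in every library. Slc25a5, which encodes the ADP/ATP exchanger ANT2, stood first at 275 and 300 CPM per kb in wild type and 311 and 443 CPM per kb in the knockout. Slc25a3, the phosphate carrier that delivers the other substrate of ATP synthase, followed at 125 and 118, then 127 and 115 CPM per kb. Slc25a4, which encodes the second ADP/ATP exchanger ANT1, was at 60.9 and 57.4, then 53.8 and 51.1 CPM per kb, and Slc25a39 at 46.7 and 52.5, then 62.7 and 60.3 CPM per kb. By group means Slc25a4 took place 3 and Slc25a39 place 4 in wild type, and the reverse in the knockout. Slc25a11 (43.9 to 50.4 CPM per kb) and Slc25a1 (40.3 to 47.3) took places 5 and 6 in both groups, with overlapping ranges. The lowest 2 of the 40 by group mean, in both groups, were Slc25a43 (0.433 to 0.814 CPM per kb) and Slc25a35 (0.739 to 1.26), whose ranges overlapped. Slc25a33 went from place 27 of 40 in wild type (3.89 CPM per kb) to place 13 in the knockout (12.5 CPM per kb).

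**Figure D2:**
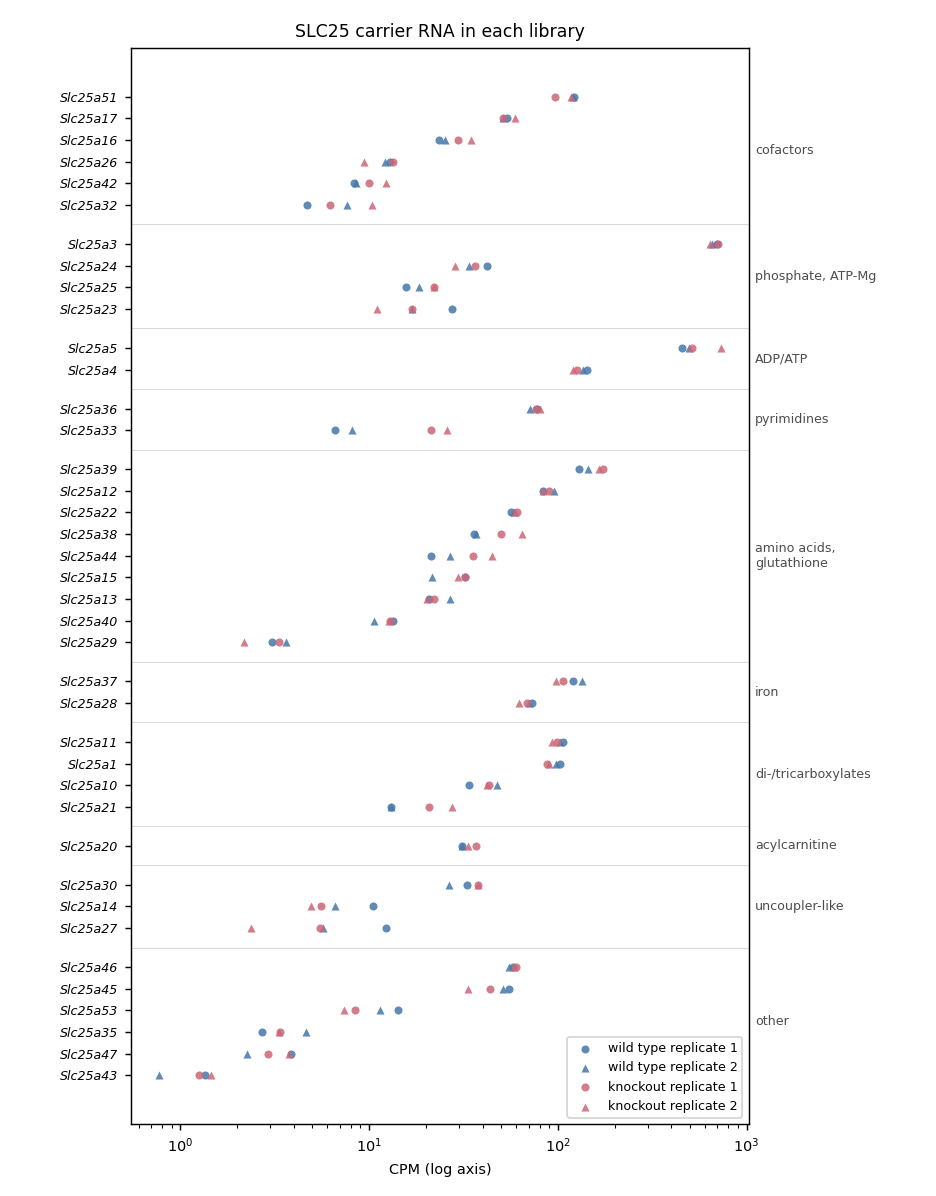
CPM of 39 of the 40 carriers on a log axis, 1 point per library (blue, wild type; red, knockout; circles, replicate 1; triangles, replicate 2), grouped by substrate. For most carriers the 4 points lie close together, whereas the 2 knockout points of Slc25a33, at 21.3 and 26.01 CPM, lie right of the wild-type points at 6.56 and 8.13 CPM.

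The pyrimidine nucleotide carriers gave the clearest result. The human counterparts of Slc25a33 and Slc25a36 carry pyrimidine nucleotides such as UTP and CTP across the inner membrane, which supplies mitochondrial DNA and RNA synthesis. Slc25a33 was at 6.56 and 8.13 CPM in wild type (116 and 137 reads) and at 21.3 and 26.01 CPM in the knockout (358 and 431 reads). Both knockout libraries were far above both wild-type libraries, with means of 7.35 ± 1.11 and 23.6 ± 3.35 CPM (SD, n = 2), a 3.22-fold ratio. The log2 fold change was 1.56 ± 0.24 (SE, limma adjusted p = 0.0231), and within the replicate numbers it was 1.557 for number 1 and 1.565 for number 2. In the authors' deposited table its log2 fold change was 1.69 with an FDR of 5.4e-06. The call ended without knockout replicate 1 (log2 fold change 1.70, limma adjusted p = 0.120), without knockout replicate 2 (1.42 and 0.347) and with limma-voom (0.0557). Without knockout replicate 2 limma called none of the 15255 genes, with 1209 at an unadjusted p under 0.05. Slc25a36 was at 78.0 and 71.5 CPM in wild type and 76.6 and 80.9 CPM in the knockout, so its groups overlapped (log2 fold change 0.08 ± 0.14 SE, limma adjusted p = 0.798). The ratio of Slc25a33 to Slc25a36 CPM was 0.0842 and 0.114 in wild type and 0.278 and 0.321 in the knockout; ratios between paralogs are descriptions with no test. Slc25a33 shares 281 exon bases with Gm13068 on the opposite strand, a gene with no row in the table, and the labels do not say whether counting used the strand.

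The promoters of these paralogs are shown because one gene was called and the other was not, with that of the glycine carrier Slc25a38, which the authors' deposited table also placed higher. Each window runs from 250 bases before to 50 bases after the RefSeq start on GRCm38.p6, 5′ to 3′ on the gene's own strand. Capitals mark CACGTG (an E-box) and TGACGTCA (a cAMP response element), 2 palindromes added after these sequences had been read.
Slc25a33, chr4:149774218-149774517, minus strand: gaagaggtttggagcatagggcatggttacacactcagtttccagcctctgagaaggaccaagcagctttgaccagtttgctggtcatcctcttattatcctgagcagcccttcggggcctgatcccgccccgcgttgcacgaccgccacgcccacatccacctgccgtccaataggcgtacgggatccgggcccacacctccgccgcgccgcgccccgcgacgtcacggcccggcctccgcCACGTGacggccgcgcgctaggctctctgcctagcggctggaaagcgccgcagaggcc
Slc25a36, chr9:97110992-97111291, minus strand: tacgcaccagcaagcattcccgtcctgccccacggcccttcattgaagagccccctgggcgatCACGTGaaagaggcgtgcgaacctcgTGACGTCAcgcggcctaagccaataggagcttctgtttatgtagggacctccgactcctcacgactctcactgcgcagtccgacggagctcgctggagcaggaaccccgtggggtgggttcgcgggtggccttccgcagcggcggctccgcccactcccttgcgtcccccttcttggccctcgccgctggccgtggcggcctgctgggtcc
Slc25a38, chr9:120110132-120110431, plus strand: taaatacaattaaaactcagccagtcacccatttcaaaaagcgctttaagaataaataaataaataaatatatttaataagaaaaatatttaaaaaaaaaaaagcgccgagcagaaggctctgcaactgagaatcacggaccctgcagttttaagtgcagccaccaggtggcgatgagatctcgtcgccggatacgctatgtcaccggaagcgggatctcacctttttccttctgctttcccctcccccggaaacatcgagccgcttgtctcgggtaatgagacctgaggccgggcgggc
The Slc25a33 window has CACGTG just before the start, the Slc25a36 window has both motifs farther upstream, and the Slc25a38 window has neither.

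The RefSeq table held 41 windows of 31 carriers among 32851 windows of 27025 genes; Slc25a44 had none. CACGTG was in 7 carrier windows (of Slc25a1, Slc25a13, Slc25a14, Slc25a15, Slc25a33 and Slc25a36) and in 7.15% of all windows. Slc25a14 counts there with overlapping windows that hold the same CACGTG. TGACGTCA was in 2 carrier windows (Slc25a25 and Slc25a36) and in 1.79% of all windows. Both strands were also searched for 4 other motifs. TGATGCAA, the composite site of ATF4 with C/EBP, was in no carrier window and in 0.895% of all windows. TGATGNAA, which includes it, was also in none, against 3.97%. The GATA motif AGATAAG was in 1 carrier window (Slc25a5), against 3.04%, and the NRF1 motif TGCGCANG in 1 (Slc25a3), against 5.82%. A match describes these letters in these windows and says nothing of binding.

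Amino acid and glutathione carriers formed the largest group, with 9 members and a median log2 fold change of 0.09. Limma called none. An unadjusted p under 0.05 was found for 2 (22.2%), against 20.8% of all genes. In 4 (44.4%) both knockout libraries were above both wild-type libraries, against 27.2% of all genes. In none were both below, against 26.9%, and with 9 members these shares rest on few genes. Slc25a44, the carrier of branched-chain amino acids, was at 21.4 and 26.7 CPM in wild type and at 35.6 and 45.0 CPM in the knockout. The knockout libraries were the higher ones in both numbers, by 0.71 and 0.73 on the log2 scale (pooled 0.72 ± 0.20 SE, limma adjusted p = 0.109). The authors' deposited table gave it an FDR of 0.012, and with 1 library left out its log2 fold change ran from 0.56 to 0.88. Slc25a38, the glycine importer whose human gene is mutated in a congenital sideroblastic anaemia, was at 35.8 and 37.0 CPM in wild type and at 49.8 and 64.9 CPM in the knockout. The wild-type libraries were close together and the knockout libraries higher by 0.46 and 0.79 within the numbers (pooled log2 fold change 0.63 ± 0.17 SE, limma adjusted p = 0.112). Its FDR in the authors' deposited table was 0.023. Knockout replicate 2, the library with the most Slc25a38 RNA, also had the largest erythroid marker sum, 2779 CPM, and the part of that in the Slc25a38 values was not tested.

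Other members of this group lay closer to wild type. Slc25a39, a glutathione importer, was at 129 and 145 CPM in wild type and 173 and 166 CPM in the knockout (log2 fold change 0.31 ± 0.14 SE, limma adjusted p = 0.249). Its paralog Slc25a40 lay between 10.7 and 13.4 CPM with overlapping groups. The aspartate/glutamate carriers of the malate-aspartate shuttle, Slc25a12 (83.2 to 95.9 CPM) and Slc25a13 (20.3 to 27.0 CPM), had overlapping groups as well. So did the ornithine carrier Slc25a15 (21.4 to 32.4 CPM) and the basic amino acid carrier Slc25a29 (2.17 to 3.62 CPM). The glutamate carrier Slc25a22 was slightly higher in the knockout, at 60.9 and 59.3 CPM against 56.5 and 58.8 CPM (log2 fold change 0.06 ± 0.14 SE, limma adjusted p = 0.844).

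The carriers of di- and tricarboxylates split by member. Slc25a21, whose human counterpart carries 2-oxoadipate and 2-oxoglutarate in lysine and tryptophan breakdown, was at 13.1 and 13.0 CPM in wild type and at 20.8 and 27.3 CPM in the knockout. Both knockout libraries were higher, by 0.63 and 1.02 within the numbers (pooled log2 fold change 0.82 ± 0.22 SE, limma adjusted p = 0.105). The authors' deposited table gave an FDR of 0.031. Slc25a21 shares 189 exon bases with Pax9 on the opposite strand, which has no row in the table. The oxoglutarate/malate carrier Slc25a11 of the malate-aspartate shuttle was lower in both knockout libraries, at 98.5 and 93.0 CPM against 107 and 103 CPM (log2 fold change -0.13 ± 0.13 SE, limma adjusted p = 0.630). The citrate carrier Slc25a1, which exports citrate for fatty acid and sterol synthesis, was at 102 and 97.3 CPM in wild type and 87.3 and 89.4 CPM in the knockout, a log2 fold change of -0.17 ± 0.13 (SE, limma adjusted p = 0.50). Slc25a10, which exchanges malate or succinate for phosphate, overlapped between groups (33.7 to 47.6 CPM).

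The uncoupler-like carriers, so called for their sequence likeness to UCP1, had a median log2 fold change of -0.58. Slc25a27, also known as UCP4, was at 12.3 and 5.70 CPM in wild type and at 5.46 and 2.35 CPM in the knockout. Replicate 1 was above replicate 2 in each group, and knockout replicate 1 lay just below wild-type replicate 2. Within the numbers Slc25a27 was lower by similar amounts, -1.04 and -0.998 on the log2 scale (pooled -1.02 ± 0.46 SE, limma adjusted p = 0.258). The authors' deposited table gave it a log2 fold change of -1.22 and an FDR of 0.048. Slc25a14, also known as UCP5, was at 10.5 and 6.59 CPM in wild type and at 5.58 and 4.95 CPM in the knockout (log2 fold change -0.58 ± 0.32 SE, limma adjusted p = 0.342). Slc25a30 lay the other way, at 33.2 and 26.6 CPM in wild type and 37.7 and 37.5 CPM in the knockout (log2 fold change 0.33 ± 0.17 SE, limma adjusted p = 0.323).

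**Figure D3:**
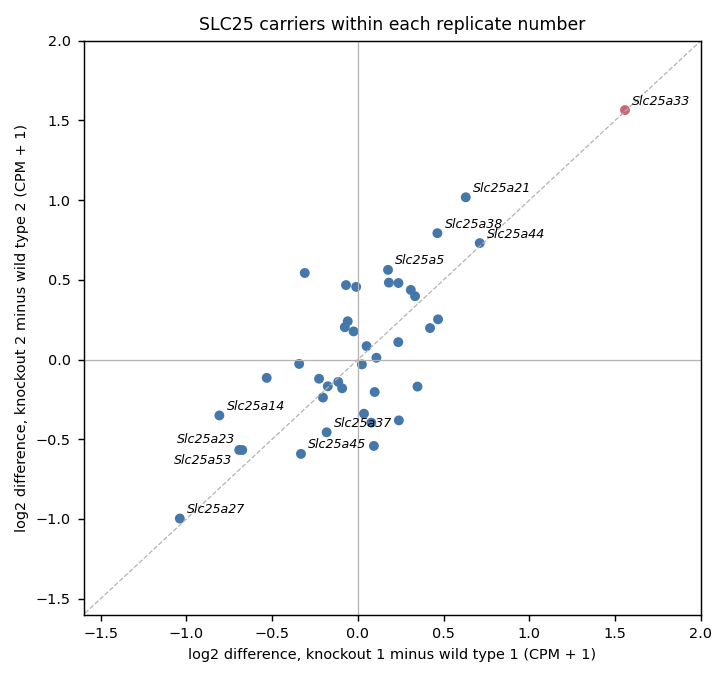
Log2 difference of CPM + 1 between knockout and wild type within replicate number 1 (horizontal) and number 2 (vertical), 1 point per carrier; red, called by limma; the dashed line marks equal differences. Slc25a33 lies at 1.557 and 1.565 and Slc25a27 at -1.04 and -0.998, while many carriers near 0 change sign between the numbers.

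Within the replicate numbers, 27 of 40 carriers (67.5%) had a difference of the same sign, against 70.9% of all genes.

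Both mitoferrin RNAs were lower in each knockout library than in each wild-type library, as were 26.9% of all genes, and neither was called. Slc25a37, mitoferrin-1, the iron importer that red cell precursors depend on, was at 121 and 134 CPM in wild type and at 106 and 97.3 CPM in the knockout. It was lower in both numbers, by -0.18 and -0.46 on the log2 scale (pooled -0.32 ± 0.14 SE, limma adjusted p = 0.246). Slc25a28, mitoferrin-2, which serves cells outside the red lineage as well, was at 73.1 and 70.8 CPM in wild type and 68.5 and 62.3 CPM in the knockout (log2 fold change -0.14 ± 0.14 SE, limma adjusted p = 0.621). The erythroid marker sum, with Car2 and Car1 its largest members, went from 1333 and 1109 CPM in wild type to 2011 and 2779 CPM in the knockout. The part of cell makeup in the mitoferrin values was not tested. Fech, the last enzyme of haem synthesis, was at 48.7 and 49.8 CPM in wild type and 63.8 and 98.3 CPM in the knockout (limma adjusted p = 0.136). Slc25a37 shares 381 exon bases with Gm31748 on the opposite strand, which has no row in the table.

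The carriers of adenine nucleotides and phosphate held no limma call, and none had an unadjusted p under 0.05. Slc25a5 was at 453 and 494 CPM in wild type and at 512 and 730 CPM in the knockout. Knockout replicate 2 stood well above the other 3 libraries (log2 fold change 0.37 ± 0.19 SE, limma adjusted p = 0.308, within-number differences 0.18 and 0.56). Without that library the log2 fold change was 0.11. Slc25a4 was lower in both knockout libraries, at 127 and 120 CPM against 143 and 135 CPM (log2 fold change -0.17 ± 0.13 SE, limma adjusted p = 0.499). The ratio of Slc25a4 to Slc25a5 CPM was 0.316 and 0.274 in wild type and 0.248 and 0.165 in the knockout, lower in both knockout libraries. Slc25a5 shares an 887-base near-identical stretch with Gm5560, which was at 2.09 to 4.89 CPM. Slc25a3 had overlapping groups, at 695 and 654 CPM in wild type and 707 and 640 CPM in the knockout (log2 fold change -0.00 ± 0.14 SE, limma adjusted p = 0.990), and the sign of that value turned without wild-type replicate 1 (0.04) and without knockout replicate 2 (0.07). The calcium-regulated ATP-Mg/phosphate carriers differed from one another. Slc25a23 was at 27.6 and 16.8 CPM in wild type and 16.9 and 11.0 CPM in the knockout, higher in number 1 than number 2 in each group (log2 fold change -0.62 ± 0.30 SE, limma adjusted p = 0.292). Slc25a24 lay at 42.2 and 33.6, then 36.5 and 28.4 CPM, also overlapping. Slc25a25 was higher in both knockout libraries, at 21.98 and 22.02 CPM against 15.6 and 18.3 CPM (log2 fold change 0.36 ± 0.20 SE, limma adjusted p = 0.347).

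**Figure D4:**
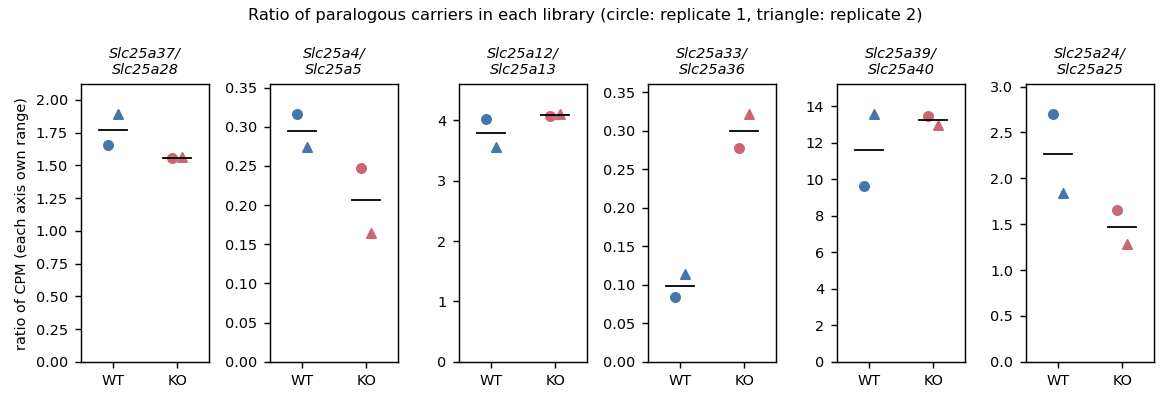
Ratio of the CPM of 2 paralogous carriers in each library, 6 pairs, each axis starting at 0 with its own range (circles, replicate 1; triangles, replicate 2; bars, group means). The Slc25a33/Slc25a36 ratio goes from a mean of 0.0989 in wild type to 0.299 in the knockout. The Slc25a4/Slc25a5, Slc25a24/Slc25a25 and Slc25a37/Slc25a28 ratios are lower in both knockout libraries. The Slc25a12/Slc25a13 ratio is slightly higher in both, and the Slc25a39/Slc25a40 ratio overlaps.

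Among the other pairs, the ratio of Slc25a24 to Slc25a25 was 2.699 and 1.83 in wild type and 1.66 and 1.29 in the knockout. The ratio of Slc25a37 to Slc25a28 was 1.66 and 1.89, then 1.56 and 1.56, and that of Slc25a12 to Slc25a13 was 4.03 and 3.55, then 4.08 and 4.10. The Slc25a39 to Slc25a40 ratio overlapped between groups, from 9.60 to 13.6.

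The cofactor carriers gave no limma call among 7 members and none at an unadjusted p under 0.05, with a median log2 fold change of 0.06. Slc25a51, the NAD importer, had the most RNA of them at 122 and 120 CPM in wild type and 96.04 and 118 CPM in the knockout (log2 fold change -0.19 ± 0.15 SE, limma adjusted p = 0.525). Higher in both were the carriers linked to coenzyme A, Slc25a16 (23.6 and 25.3, then 29.5 and 34.6 CPM) and Slc25a42 (8.32 and 8.54, then 9.98 and 12.3 CPM), with limma adjusted p of 0.280 and 0.471. Overlapping groups were found for Slc25a17, a peroxisomal carrier of coenzyme A and related cofactors (51.2 to 59.1 CPM), and for the S-adenosylmethionine carrier Slc25a26 (9.35 to 13.3 CPM). The folate carrier Slc25a32 also overlapped, at 4.70 and 7.59 CPM in wild type and 6.18 and 10.3 CPM in the knockout. The carnitine/acylcarnitine carrier Slc25a20, which brings fatty acids in for oxidation, was at 31.2 and 31.1 CPM in wild type and 36.9 and 33.6 CPM in the knockout (log2 fold change 0.17 ± 0.16 SE, limma adjusted p = 0.583).

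Of the 6 members with another role or an unsettled substrate, none was called and 2 had an unadjusted p under 0.05, both lower. Of all genes, 9.79% were lower at that p. Slc25a53 was at 14.1 and 11.4 CPM in wild type and 8.37 and 7.36 CPM in the knockout (log2 fold change -0.63 ± 0.26 SE, limma adjusted p = 0.227). Slc25a45 was at 55.1 and 51.1 CPM in wild type and 43.5 and 33.6 CPM in the knockout (log2 fold change -0.46 ± 0.18 SE, limma adjusted p = 0.195). Both were lower in each number. Slc25a46, an outer membrane protein with a role in mitochondrial shape, differed little, at 57.9 and 54.9 CPM against 60.0 and 58.2 CPM (log2 fold change 0.07 ± 0.14 SE, limma adjusted p = 0.823). Slc25a35 (2.72 to 4.63 CPM), Slc25a47 (2.25 to 3.85 CPM) and Slc25a43 (0.771 to 1.45 CPM) overlapped between groups on few reads.

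Of 46 listed genes that import carriers, transport beside them or use what they carry, 43 had a row. Limma called 3 higher and 1 lower, against 2.42% of all genes, all 4 among the 18 enzymes that use the carried substrates. Shmt2 and Mthfd2, mitochondrial enzymes of the serine and folate one-carbon pathway that the folate carrier supplies, rose with log2 fold changes of 1.32 ± 0.14 and 1.91 ± 0.21 (SE; limma adjusted p = 0.0088 and 0.0101). Shmt2 went from 203 and 233 CPM to 515 and 578 CPM, and Mthfd2 from 42.6 and 66.9 CPM to 195 and 212 CPM. Got1, the cytosolic aspartate aminotransferase of the malate-aspartate shuttle, rose from 38.9 and 38.0 CPM to 74.8 and 89.4 CPM (log2 fold change 1.07 ± 0.15 SE, limma adjusted p = 0.0172). Idh2, a mitochondrial isocitrate dehydrogenase, fell from 324 and 302 CPM to 192 and 142 CPM (log2 fold change -0.92 ± 0.17 SE, limma adjusted p = 0.0406). Each of these 4 calls was lost without knockout replicate 1 (limma adjusted p = 0.0583 to 0.0693) and without knockout replicate 2 (0.155 to 0.355), and that of Idh2 also with edgeR (0.0582) and limma-voom (0.0783). Around the shuttle, its cytosolic enzymes Got1 and Mdh1 differed in direction. Mdh1 was at 268 and 256 CPM in wild type and 183 and 160 CPM in the knockout (limma adjusted p = 0.0668). The mitochondrial enzymes of the shuttle, Got2 and Mdh2, were higher in both knockout libraries without a call (log2 fold changes 0.43 and 0.37, limma adjusted p = 0.172 and 0.227). The RNAs of its carriers Slc25a11, Slc25a12 and Slc25a13 had log2 fold changes of -0.13, -0.05 and -0.16.

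Neither the import route nor the other transporters held a limma call, with 2 of 9 and 3 of 13 genes at an unadjusted p under 0.05, against 20.8% of all genes. Tomm70a, the outer membrane receptor that hands newly made carriers on for import, was at 152 and 151 CPM in wild type and 206 and 238 CPM in the knockout (log2 fold change 0.54 ± 0.14 SE, limma adjusted p = 0.0906). The other 8 genes of the TIM22 import route had log2 fold changes from -0.23 to 0.45. Sfxn1, a mitochondrial serine transporter outside the family, was at 151 and 156 CPM in wild type and 207 and 238 CPM in the knockout (log2 fold change 0.53 ± 0.14 SE, limma adjusted p = 0.0966). The authors' deposited table placed Tomm70a and Sfxn1 higher, with FDRs of 0.031 and 0.035. It also placed the enzymes Acly and Fech higher (FDRs of 0.026 and 0.018) and Mdh1 lower (0.011), none of them called by limma. Among enzymes without a limma call, Got2 (log2 fold change 0.43), Oat (0.41), Acly (0.55) and Cs (0.48) lay above 0, with limma adjusted p from 0.124 to 0.231. Of the carrier relatives named outside the series, Ucp2 was at 608 and 901 CPM in wild type and 542 and 770 CPM in the knockout, and Mtch1 and Mtch2 were not called either.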

How the data were processed

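Poly(A) RNA of 4 LSK libraries was sequenced as single-end reads, per the labels' protocols. STAR 2.7.10a, featureCounts 2.0.1 and the GRCm38.p6 build are listed in the submitters' processing notes; the annotation release and counting settings are not given in the sources used here. The deposited signal is CPM on an effective library size, per the file headers, and its values equalled TMM-scaled CPM of whole reads recovered from their steps (100% within 0.01 of a whole number). Carriers rested on 13 to 12288 reads a library. The authors' deposited log2 fold changes, likelihood ratio (a score) and p-values with FDR were copied; an edgeR likelihood ratio refit with the replicate number as a term differed by at most 3.63e-08 in log2 fold change.

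Groups were compared with limma 3.58.1 (R 4.3.3) on log2(CPM + 1), with trend and robust moderation, two-sided, 2 residual degrees of freedom and Benjamini-Hochberg adjustment over 15255 genes. The design planned for CPM was kept. Alternatives were edgeR 4.0.16 and DESeq2 1.42.0 on recovered reads, limma-voom, a replicate block, median-of-ratios scaling, a pseudocount of 0.1 CPM, a filter (a mean of 20 reads with at least 1 CPM in each library of 1 group, leaving 13304 genes) and leaving out each library. Scripts were tested on simulated data without a replicate effect, for sign errors and for recovery of large changes. The test set no limit on false calls. Values in every library are given for carriers called by limma with or without the block, for those with non-overlapping groups and an absolute log2 fold change of at least 0.5, and for the carrier with most CPM in each substrate group; others given this way were chosen after their values were seen. Related genes were named where limma called them with or without the block. Ucp2, Mtch1, Mtch2, Mdh2 and Alas1, like marker genes without a limma call, were named after their values were seen. Members, substrate groups, related genes and marker lists were chosen with earlier results of these data known. Exon lengths and overlaps are from GENCODE M21. Of the carriers, 11 share exon bases with an opposite-strand gene and 13 have a 150-base stretch at 98% identity or more in another gene, so their reads are less certain. Promoter windows are from RefSeq; no protein sequence was used here. The enrichment sheets were not used. The values of 1 carrier and 1 erythroid gene, counted in their lists, are not reported here.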

Additional observations from a re-analysis of the deposited data

How the results depend on the processing

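With all 4 libraries, the log2 fold change of each of the 40 carriers kept its sign under every test, scaling, pseudocount and filter tried. The count of all genes called (369) was 1221 with DESeq2 and 117 with limma-voom, and from 0 to 1068 with 1 library left out. The count of carriers called higher (1) was 4 with DESeq2 (Slc25a33, Slc25a44, Slc25a38 and Slc25a21), 0 with limma-voom, and 0 to 2 with 1 library left out. The carrier median (0.06) was 0.00 to 0.04 with 1 library left out. Slc25a33 had adjusted p from 4.1e-06 with DESeq2 to 0.0557 with limma-voom. Among the erythroid genes named as called, limma-voom lost Car1, Gata1, Klf1 and Rhag (adjusted p 0.0593 to 0.0714). Cma1, Csf1r, Siglech and Tcf4 were also lost with limma-voom (0.0778 to 0.0974), and so was Idh2 (0.0783).

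Leaving out 1 library turned the sign of 11 carriers, none of them called; their log2 fold changes then ran from -0.075 to 0.068 (Slc25a3), -0.15 to 0.33 (Slc25a10), -0.15 to 0.045 (Slc25a12), -0.34 to 0.022 (Slc25a13), -0.064 to 0.51 (Slc25a15), -0.038 to 0.16 (Slc25a17), -0.39 to 0.081 (Slc25a26), -0.37 to 0.23 (Slc25a35), -0.061 to 0.24 (Slc25a40), -0.0077 to 0.41 (Slc25a43) and -0.17 to 0.40 (Slc25a47). The Slc25a39/Slc25a40 log2 ratio change (0.21) was -0.04 without wild-type replicate 1.

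Groups share replicate numbers, and the submitters named the deposited comparison as paired. The labels do not say what a number shares, and the sex-linked RNA followed the number. Deviations of same-numbered libraries had a correlation of 0.286 across 13795 genes, which are not independent. With the replicate number as a block, 1 residual degree of freedom was left. Limma then called 1779 genes, 4 carriers higher and 1 lower: Slc25a33 (adjusted p = 0.00372), Slc25a44 (0.0202), Slc25a38 (0.0294), Slc25a21 (0.0336) and Slc25a27 (0.0494). An edgeR fit with the block called 1789 genes, 4 carriers higher and none lower. Sfxn1, Tomm70a, Acly, Cs, Fech, Got2, Mdh1 and Oat passed in limma with the block, with adjusted p from 0.0127 to 0.0485, and Car1 (0.126) and Csf1r (0.0862) did not. Cd34 (0.000931), Flt3 (0.00129) and Ly6a (0.0494) also passed. The carriers with fewest reads, such as Slc25a43, limit what a change could show at this depth.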

Other observations

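In 6 of the 40 carriers (15%) both libraries numbered 1 were above both numbered 2: Slc25a3, Slc25a15, Slc25a23, Slc25a24, Slc25a26 and Slc25a40. Slc25a32 was the sole carrier with the opposite order (2.5%). Among all genes these shares were 14.7% and 13.0%. Some of these carriers also had a genotype difference of 1 sign within both numbers, as Slc25a23 (-0.67 and -0.57 on the log2 scale), Slc25a24 (-0.20 and -0.24) and Slc25a32 (0.33 and 0.40). The 4 carriers on X did not split by number, although Xist did. Slc25a15 shows the size of such a split, at 32.4 and 32.1 CPM in the libraries numbered 1 and 21.4 and 29.7 CPM in those numbered 2.

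Alas1, which starts haem synthesis from the glycine that Slc25a38 carries, was at 293 CPM in wild-type replicate 2 and at 89.9 to 106 CPM in the other 3 libraries. That library also had the largest sum of mature neutrophil genes, 1678 CPM. Slc25a37 was also highest in wild-type replicate 2, at 134 CPM against 97.3 to 121 CPM elsewhere. Slc25a38 was at 37.0 CPM there, within its range of 35.8 to 64.9 CPM. No part of cell makeup in these values was tested.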
